A study of Mus musculus with 4 samples.

Results

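The mitochondria-rich barcodes of the untreated kidney library are those in which over 50% of the unique molecular identifiers (UMIs, each a tag on 1 captured RNA molecule) came from the 13 mitochondrially encoded protein genes, whose names start with mt-. Of the 9286 barcodes of that library, 9285 had at least 500 UMIs and at least 300 genes. Among these, 2739 (29.5%, 28.6 to 30.4) were mitochondria-rich and 6546, at or below 50%, form the comparison set, called the other barcodes here. The whole series holds 27230 barcodes. The measured share of mt- UMIs chose the sets, so it is described and supports nothing. The share was 67.8% at the median of the mitochondria-rich barcodes and 14.5% at that of the others.

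The series read single kidney cells of BAC-CluGFP mice, which carry a transgene that ties green fluorescent protein (GFP) to the clusterin gene Clu, in 4 libraries with 1 library per group. Cells carrying GFP were collected by flow sorting and captured in droplets with 10x Genomics 3′ chemistry. The untreated library is the only one compared within itself here, and the other 3 libraries come from kidneys 2, 7 and 30 days after 35 min of ischemia with reperfusion. Both sets therefore share the transgene, the sort, the digestion and the capture. One label of the untreated library speaks of cells taken after ischemia and reperfusion, whereas its title and its treatment label give it as untreated. The sources used here give neither age nor the number of animals. Barcodes of 1 library are not replicates, so no difference was tested and no p-value is given. Intervals, given at 95%, hold counting error and nothing else.

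Mitochondria carry their own small genome, which encodes core subunits of the respiratory chain, while all other mitochondrial proteins are encoded in the nucleus. The proximal tubule, which reabsorbs most of the filtrate, and the thick ascending limb and distal convoluted tubule, which reclaim salt, are known as segments dense in mitochondria.

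In the other libraries 34 of 9022 barcodes at day 2 (0.377%), 0 of 1930 at day 7 (up to 0.155%) and 45 of 6991 at day 30 (0.644%) passed the same threshold. The untreated library held 68193456 UMIs, with a lowest total of 2335 and a median of 4568.5 per barcode. It shared 20 barcode sequences with the day 2 library, 5 with day 7 and 16 with day 30, of which 7, 2 and 7 were mitochondria-rich.

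The sets differed in depth. Mitochondria-rich barcodes had a median of 3819 UMIs, of which 2626 were mitochondrial and 1141 were not, over 714 genes. The other barcodes had medians of 5157 UMIs in all, 821.5 mitochondrial and 4261 non-mitochondrial, over 1913 genes. Mitochondria-rich barcodes thus held more mitochondrial UMIs as well as fewer non-mitochondrial ones, and more mitochondrial RNA in a cell and less remaining cytosolic RNA cannot be told apart. No other barcode had fewer than 1186 non-mitochondrial UMIs, while the mitochondria-rich ones reached down to 400, since the library holds no barcode under 2335 UMIs in all. After thinning each barcode to 500 non-mitochondrial UMIs, which left out 13 mitochondria-rich and 0 other barcodes, the median number of genes was 358 and 365.

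Near the threshold the sets ran into each other. The 263 barcodes with 45 to 50% mt- UMIs had a median of 2061 non-mitochondrial UMIs, and the 305 with 50 to 55% had 1805. Among proximal tubule-like barcodes, defined by the clusters described next, the number per 5-point step was 165 at 45 to 50%, rose to 434 at 65 to 70% and was 71 at 85 to 90%.

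**Figure D1:**
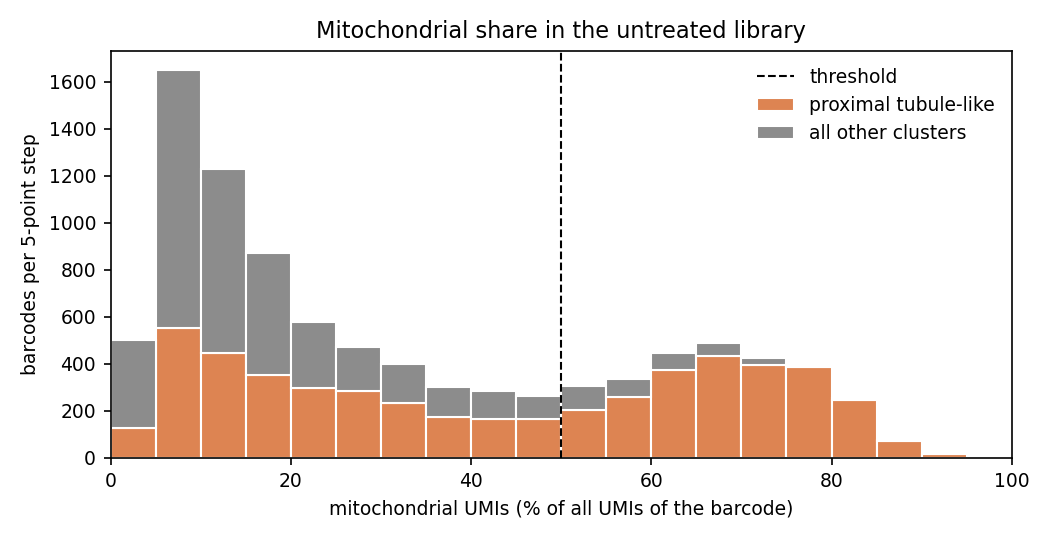
Barcodes of the untreated library (vertical axis, number) in 5-point steps of the mitochondrial share of UMIs (horizontal axis, %), with proximal tubule-like barcodes in orange, all other clusters stacked in grey and the 50% threshold as a dashed line. Above 60% most of each bar is orange, with 434 proximal tubule-like and 56 further barcodes at 65 to 70%.

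Clusters were built on nuclear-encoded genes alone, so the mt- genes had no part in them. Of 23 clusters, 22 could be called like a cell class from marker genes. Mitochondria-rich barcodes were mostly proximal tubule-like: 2382 of them, 87.0% (85.6 to 88.2), against 2796 of the others, 42.7% (41.5 to 43.9). These intervals do not cover the naming of clusters, and at a finer clustering, given below, the shares were 51.0% and 41.2%. Connecting tubule or principal-like barcodes made up 5.70% of the mitochondria-rich set and 12.6% of the others, thick ascending limb-like ones 3.14% and 9.33%, and distal convoluted tubule-like ones 1.83% and 3.50%. Intercalated-like barcodes, the acid-base cells of the collecting duct, were 1.53% (42 barcodes) against 13.0% (849). Endothelium-like barcodes were 0.621% (17) against 8.25% (540). Urothelium-like barcodes numbered 1 against 255, thin limb-like ones 0 against 96 and macula densa-like ones 0 against 46.

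Seen by class, 46.0% (44.6 to 47.4) of proximal tubule-like barcodes were mitochondria-rich, 17.9% of distal convoluted tubule-like, 15.9% of connecting tubule or principal-like, 12.3% of thick ascending limb-like, 4.71% of intercalated-like and 3.05% of endothelium-like ones. By the 50% threshold the thick ascending limb did not stand beside the proximal tubule. By median mt- share its class came next, at 24.1% against 44.0%, ahead of the distal convoluted tubule-like class at 20.0%.

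**Figure D2:**
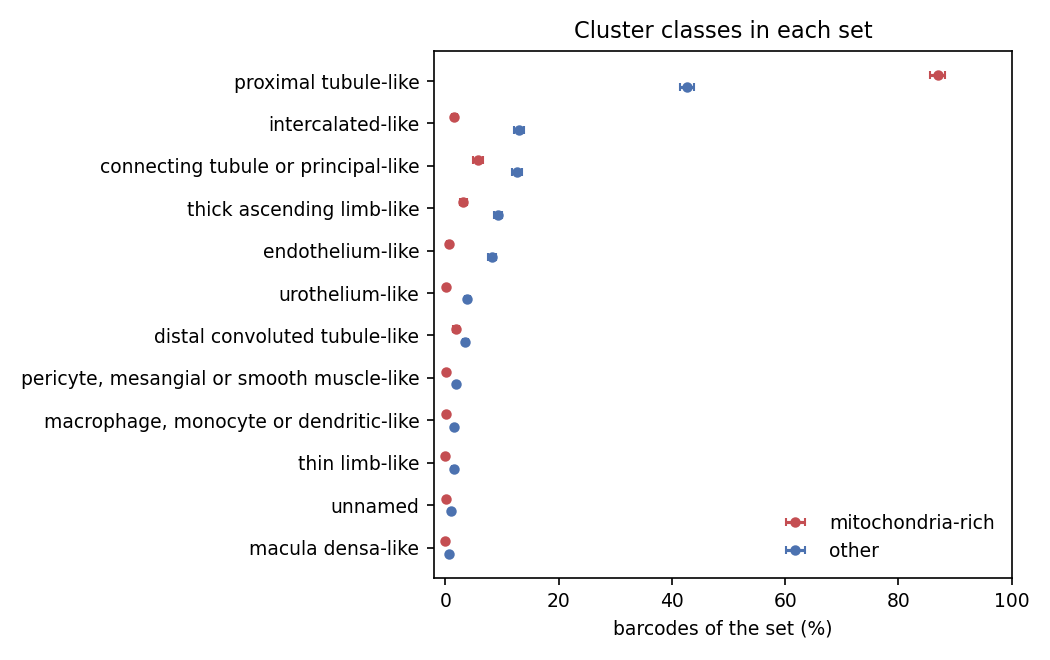
Share of each set (horizontal axis, %) that fell in each cluster class (vertical axis), mitochondria-rich in red and other in blue, with exact 95% binomial intervals of counting error. The proximal tubule-like class holds 87.0% of the mitochondria-rich barcodes and 42.7% of the others, and every other class holds a smaller share of the mitochondria-rich set than of the others.

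Inside the proximal tubule-like class the mitochondria-rich barcodes were uneven. The class is made of 7 clusters, and cluster 0 alone held 1607 mitochondria-rich barcodes, 58.7% of that set, against 6.06% of the others. Cluster 0 was led by AY036118, Gm42418 and Lars2, followed by proximal tubule genes such as Inmt, Acsm3, Lrp2 and Slc13a3. In the other 6 clusters between 7.92% and 39.0% of barcodes were mitochondria-rich. The name of cluster 0 depends on how finely the data are clustered: at a Leiden resolution of 2, 1105 mitochondria-rich barcodes (40.3%) fell in 4 unnamed clusters, 952 of which came from cluster 0, and the proximal tubule-like share of the set was 51.0% against 41.2% of the others. One of those unnamed clusters, with 716 mitochondria-rich of 774 barcodes, was led by AY036118, Gm42418, Lars2 and Inmt. Another, with 242 of 262, was led by Lars2 and AY036118 together with the distal genes Pvalb and Calb1.

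The entries Gm42418 and AY036118, which lead cluster 0 and recur through the results, lie on top of each other in a ribosomal RNA locus of chromosome 17. On mm10 with GENCODE vM21, Gm42418 spans chr17:39846958-39848788 on the plus strand and AY036118 chr17:39847113-39848035 on the minus strand, wholly inside it. The entry Gm26917 lies next to them at chr17:39843013-39846341 on the plus strand. The annotation also lists a ribosomal RNA gene, CT010467.1, over chr17:39846353-39848827 on the minus strand. RefSeq gives Gm42418 as a synonym of Rn18s-rs5, a pseudogene of 18S ribosomal RNA. The first 60 shared bases, chr17:39847113-39847172, are shown to make the overlap visible; each line is the exact reverse complement of its neighbour and is written 5′ to 3′ on its own strand.

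Gm42418: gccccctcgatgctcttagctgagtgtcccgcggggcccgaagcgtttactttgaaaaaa

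AY036118: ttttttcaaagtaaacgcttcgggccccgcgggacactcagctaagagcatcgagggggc

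The sources used here do not say how reads were assigned by strand, so UMIs of this pair cannot be told apart with certainty, and their sum with Gm26917 is called the 18S locus.

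Nuclear-encoded genes were compared as UMIs per 1000000 non-mitochondrial UMIs of the set, written CPM here. A gene was measured at 20 or more CPM in either set and 20 or more UMIs in both together, and it is called higher or lower where the levels differed at least 2-fold and the counting interval of the ratio left out 1. Over all barcodes 6797 genes were measured, of which 170 (2.5%) were higher and 576 (8.47%) lower in mitochondria-rich barcodes, with a median log2 ratio of -0.11.

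The 10 highest folds among genes at 50 or more CPM were those of Lars2, Gm42418, Gpm6a, Lrp2, Cckar, Slc13a3, Treh, Ace, AY036118 and Gm26917. Lars2, annotated as the mitochondrial leucyl-tRNA synthetase (chr9:123366927-123462666, plus strand), stood at 1887 against 608 CPM, 3.11-fold (3.03 to 3.18). In an alternative given below, Lars2 was left out together with Gm42418, AY036118 and Gm26917 as an entry associated with ribosomal RNA. Whether its UMIs came from the messenger RNA of the enzyme was not tested. Its levels, here and below, are therefore not read as expression of the enzyme. Gm42418 stood at 41028 against 14004, and AY036118 at 3388 against 1248. Lrp2, the endocytic receptor megalin of the proximal tubule brush border, was at 2154 against 748 CPM, 2.88-fold. Slc13a3, a dicarboxylate transporter, was at 345 against 122. Slc34a1, the phosphate transporter, was at 5245 against 2204, and Slc22a6, an organic anion transporter, at 1026 against 397. Of the proximal tubule transporters measured, 15 of 25 were higher and 0 lower, with a median log2 ratio of 1.02. Markers of its early convoluted, late convoluted and straight portions were higher for 4 of 10, 7 of 10 and 3 of 8 genes.

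Among the lower genes were markers of classes with few mitochondria-rich barcodes. Uroplakin Upk3a, a urothelial membrane protein, stood at 7.22 against 140 CPM, and 7 of 7 measured urothelium markers were lower. Endothelium markers were lower for 13 of 13, type A intercalated markers for 11 of 12, type B for 8 of 9 and principal cell markers for 9 of 13. Emcn, an endothelial sialomucin, was at 19.6 against 95.9 CPM, and Slc4a1, the anion exchanger of type A intercalated cells, at 21.4 against 143. Immediate-early genes, which switch on within minutes of stimulation or tissue dissociation, were lower for 15 of 15 measured: Fos stood at 79.2 against 538 and Jun at 129 against 691 CPM. With the mix of classes held constant Fos (ratio 0.274), Jun (0.467) and Egr1 (0.420) were still lower. Within proximal tubule-like barcodes Fos (2.57) and Egr1 (2.30) were higher, and Jun (1.16) did not pass the rule. Over all barcodes tubular injury genes were lower for 14 of 16, with S100a6 at 71.3 against 814. S100a6 went the opposite way with the mix held constant over 4 classes, at 53.5 against 21.3 CPM (2.51-fold). That comparison leaves out every further class, and the other barcodes held 623 S100a6 UMIs there against 35902 in all. Leaving out classes and weighting them were not tested apart. Within proximal tubule-like barcodes S100a6 was 3.03-fold higher. At 1000 to 3000 non-mitochondrial UMIs both ratios were below the rule, at 1.31 and 1.33. With the mix held constant 1 of 10 measured tubular injury genes was higher and 0 lower, beside 0.36% of all measured genes higher. Within proximal tubule-like barcodes 4 of 9 were higher and 0 lower, beside 1.67% of all measured genes higher.

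Nuclear-encoded partners of the mitochondrial genes did not follow the mt- share. Of the measured nuclear genes for respiratory complexes I to V (37, 4, 9, 12 and 16 genes), 0 passed the 2-fold rule in either direction, with median log2 ratios of -0.16, 0.03, -0.20, -0.25 and -0.18. Cox4i1, a subunit of complex IV, stood at 2828 against 3070 CPM. The 76 cytosolic ribosomal protein genes had a median of -0.59 and 0 calls. Lists for mitochondrial ribosomes, mitochondrial biogenesis and mitophagy had medians of -0.21, 0.04 and -0.17, also with 0 calls.

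These pooled counts moved with depth. Among barcodes with 1000 to 3000 non-mitochondrial UMIs, whose medians were still 1301 and 2256, 8 of 6583 genes were higher (0.122%) and 281 lower (4.27%). None of the 20 proximal tubule markers or 25 transporters was called. Endothelium markers were lower for 15 of 15, immediate-early genes for 13 of 16 and tubular injury genes for 8 of 16. Of the markers lower over all depths, principal cell markers were lower here for 0 of 13, type A intercalated markers for 1 of 9 and type B for 0 of 5. Lars2 stood at 1.95-fold and Gm42418 at 1.60-fold, both below the rule, and AY036118 at 1.20-fold. The ratio was 0.357 for Fos and 0.339 for S100a6.

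The mix of classes was then held constant for the 4 classes with at least 50 barcodes in each set. With weights of 62.6% proximal tubule, 18.5% connecting tubule or principal, 13.7% thick ascending limb and 5.13% distal convoluted tubule, 6384 genes were measured, of which 23 (0.36%) were higher and 44 (0.689%) lower, with a median log2 ratio of 0.02. Lars2 stood at 1857 against 740 CPM, 2.51-fold (2.44 to 2.59), and Gm42418 at 38866 against 16530.2, 2.35-fold. At 1000 to 3000 UMIs these folds were 1.85 and 1.51, below the rule. Of the 170 genes higher in the pooled comparison 6 were also higher here, while 41 of the 44 genes lower here were lower there. The lower genes included Fos, 81.4 against 297, and Aqp2, the water channel of principal cells, 243.9 against 735 CPM. At 1000 to 3000 UMIs neither passed, with ratios of 0.703 for Fos and 0.666 for Aqp2. The sets also sat in different clusters within classes. In the connecting tubule or principal-like class 149 of 156 mitochondria-rich barcodes were in cluster 9, led by Slc8a1 and Calb1. The others of that class were spread over clusters 8, 9 and 14. In the proximal tubule-like class cluster 0 held 1607 of 2382 mitochondria-rich and 397 of 2796 other barcodes. The part of clusters in the ratios of Fos and Aqp2 was not tested.

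Within proximal tubule-like barcodes 5860 genes were measured, of which 98 (1.67%) were higher and 3 (0.0512%) lower, with a median log2 ratio of 0.05. Of the genes of the proximal tubule itself, 0 of 20 markers and 0 of 25 transporters passed the rule, with median log2 ratios of 0.10 and 0.21. Among the 98 were markers of other segments. Calb1, the calcium buffer of the distal tubule, stood at 365 against 79.0 CPM, 4.62-fold (4.28 to 4.98). Klk1, a kallikrein of the connecting tubule, was at 2364 against 595, and Umod, the uromodulin of the thick ascending limb, at 887 against 293. Markers of the thick ascending limb were higher for 9 of 11 and of the connecting tubule for 6 of 8. Clu stood at 87.0 against 23.5 CPM, 3.70-fold (3.19 to 4.29), from 324 and 421 UMIs.

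The sum of distal genes fell as the depth of the barcode rose. In proximal tubule-like barcodes with 1000 to 1500, 1500 to 2000, 2000 to 3000 and 3000 to 5000 non-mitochondrial UMIs, the summed level of 70 distal nephron markers was 21024, 15834, 12336 and 9585 CPM in the mitochondria-rich set and 18287, 18067, 13054 and 11547 in the others. The ratios were 1.15, 0.876, 0.945 and 0.830. Above 5000 UMIs, where the median depths were 6639 and 10941, the ratio of the sum was 0.837. Single genes did not all follow the sum. At 1000 to 1500 and above 5000 UMIs Calb1 stood at 1.85-fold and 2.12-fold. Clu stood at 1.37-fold and 1.94-fold there, and Umod at 1.07-fold and 1.43-fold. The 866 mitochondria-rich barcodes with 500 to 1000 non-mitochondrial UMIs, at 22425 CPM, have no counterpart among the others. No other barcode of the class had fewer than 1191, above the mitochondria-rich median of 1094. The step of 1000 to 1500 set 891 mitochondria-rich barcodes (median 1142) against 81 others (median 1386). Endothelium-like other barcodes carried 8460 CPM of the same sum at 2000 to 3000 UMIs, 7451 at 3000 to 5000 and 9171 above 5000. Whether endothelium transcribes some of the 70 genes itself was not tested. At 2000 to 5000 UMIs the ratio was 0.991 for Calb1, 0.981 for Klk1, 1.01 for Umod and 1.40 (1.01 to 1.92) for Clu, so that none of the 4 was called. That window held 18 of the mitochondria-rich barcodes of cluster 0. At 1000 to 3000 UMIs, where the medians were 1249 and 2221, Calb1 stood at 2.10-fold and was still called higher. Klk1 was at 1.74-fold there, Umod at 1.37-fold and Clu at 1.67-fold, all below the rule. With the clusters of the class as strata Clu stood at 1.72-fold. Without cluster 0, which held 1607 mitochondria-rich barcodes, Calb1 stood at 2.16-fold, Klk1 at 2.06-fold and Clu at 2.58-fold.

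**Figure D3:**
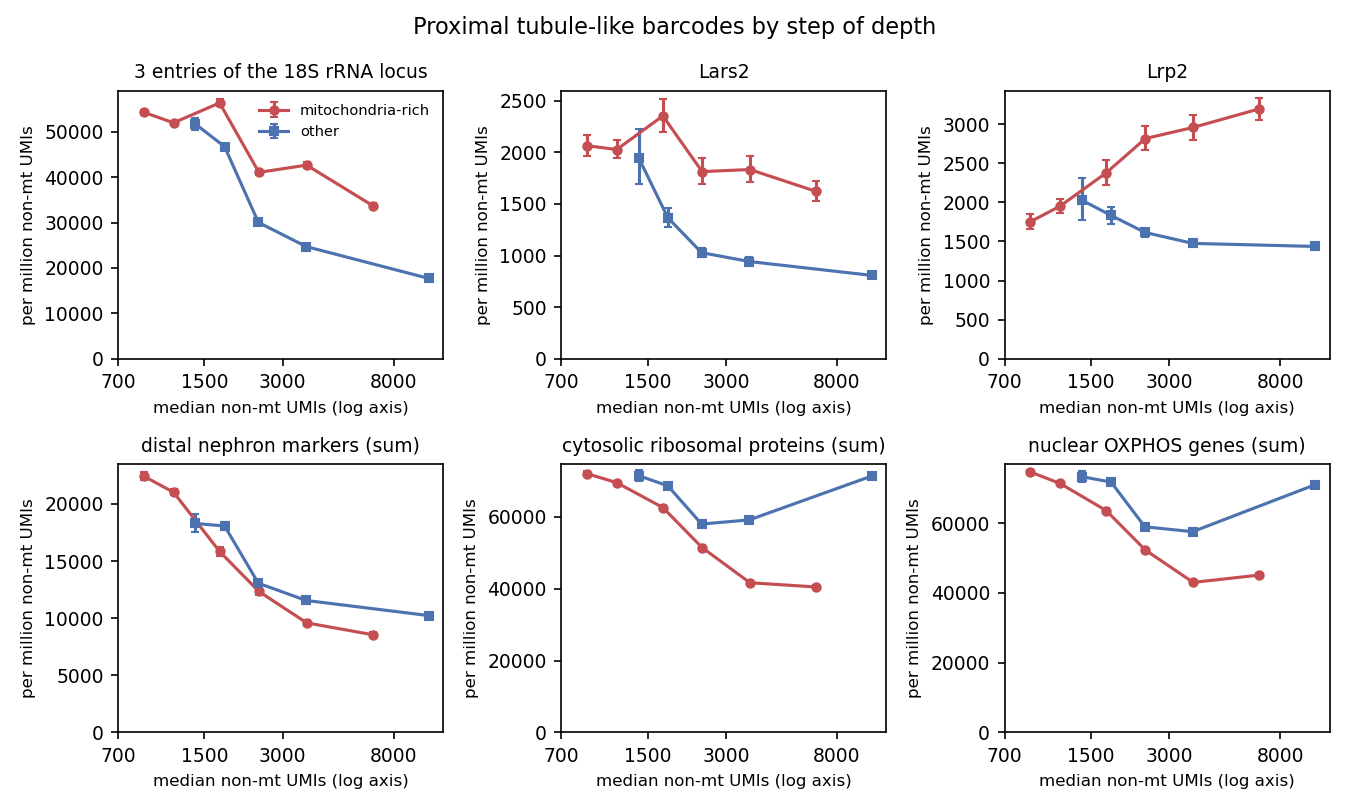
Levels in CPM (vertical axes from 0) in proximal tubule-like barcodes against the median non-mitochondrial UMIs of each depth step (horizontal axis, log scale), mitochondria-rich as red circles and other as blue squares, with exact 95% Poisson intervals. Distal nephron markers fall with depth in both sets, whereas Lrp2 rises with depth in the mitochondria-rich set, from 1751 to 3193, and not in the others.

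The 18S locus, Lars2 and Lrp2 behaved differently, as their ratios grew over the depth steps. For the 18S locus they were 1.01, 1.21, 1.37 and 1.73 over the same 4 steps, for Lars2 1.04, 1.72, 1.76 and 1.95, and for Lrp2 0.962, 1.30, 1.74 and 2.00. Slc34a1 went from 0.961 to 1.67. Ribosomal protein genes went the opposite way, from 0.973 to 0.704, and nuclear respiratory chain genes from 0.973 to 0.747. Above 5000 UMIs the same directions were seen, but the median depths there were 6639 and 10941. The sets also drew apart in mt- share over the 4 steps. Its median was 67.4, 66.4, 65.3 and 64.0% in the mitochondria-rich set and 46.5, 31.6, 15.0 and 12.1% in the others. The parts of depth and of mt- share in these ratios were not tested.

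The window of 2000 to 5000 non-mitochondrial UMIs, chosen after these values were seen, gives medians of 2743 and 2814 UMIs for 307 mitochondria-rich and 1475 other proximal tubule-like barcodes. There 6255 genes were measured, 104 (1.66%) higher and 33 (0.528%) lower, with a median log2 ratio of 0.04, and 3 of the 104 were among the 98 above. Cluster 2 held 153 of the 307 and 542 of the 1475 barcodes. Without it 264 genes were higher and 84 lower, among genes measured anew on fewer barcodes. These counts therefore cannot be set against the 104 and 33.

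The 10 largest folds in this window among genes at 50 or more CPM were those of R3hdm4, Nomo1, Treh, Pigr, Slc22a7, Ace, Hyou1, Lrrc8b, Kif1b and Plxnb2. Slc22a7, an organic anion transporter, stood at 188 against 73.4 CPM, 2.57-fold. Treh, the brush border trehalase, was at 83.2 against 29.9, 2.79-fold (2.08 to 3.72), and Ace, angiotensin-converting enzyme, at 92.0 against 36.4. Pigr, the polymeric immunoglobulin receptor, was at 115 against 41.3, and Hyou1, a chaperone of the endoplasmic reticulum, at 54.8 against 21.8. The meprin subunit gene Mep1a was at 1109 against 543, and Amn, the partner of cubilin in protein uptake, at 514 against 255. Cubn, cubilin itself, was at 272 against 217 and did not pass the rule. Among genes at 50 or more CPM in the higher set, 4 were lower: Timm9, a chaperone of mitochondrial protein import, at 44.9 against 92.3, Commd1 at 33.9 against 70.7, Magoh, of the exon junction complex, at 23.0 against 51.0, and Rnf186 at 28.5 against 59.3. Nuclear respiratory chain genes had medians of -0.30, -0.29, -0.27, -0.29 and -0.31 for complexes I to V and ribosomal protein genes -0.35, beside 0.46 for proximal tubule transporters, of which 1 of 25 was higher. Lists were not tested against other genes.

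Transcript length moved with the ratio. Across the 5852 measured genes with an annotated length within proximal tubule-like barcodes, Spearman's rho of length and log2 ratio was 0.53, a description across genes of 1 library, which are not independent. In 5 equal groups of protein-coding transcripts, from short to long, the median log2 ratio was -0.15, -0.02, 0.06, 0.14 and 0.22. Ribosomal protein and small respiratory subunit genes are short and Lrp2 is long, and the part of length in their ratios was not tested.

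In the 3 remaining classes with at least 50 barcodes in each set the mitochondria-rich barcodes carried more proximal tubule transcripts. Smaller classes, such as the intercalated-like and endothelium-like ones, were not compared gene by gene. Of 7313 genes measured in connecting tubule or principal-like barcodes 10.6% were higher and 8.52% lower, and 20 of 20 proximal tubule markers were among the higher. Kap, an androgen-regulated kidney protein of the proximal tubule, stood there at 35839 against 9023 CPM. Of 6974 genes in thick ascending limb-like barcodes 6.78% were higher and 2.51% lower, with 18 of 20 proximal tubule markers higher. Of 6353 genes in distal convoluted tubule-like barcodes 5.62% were higher and 2.39% lower, again with 18 of 20 higher. Lars2 was higher in each of these classes, 2.92-fold, 4.21-fold and 2.63-fold. Gm42418 was 2.61-fold, 3.16-fold and 1.84-fold higher, the last below the 2-fold rule. Median non-mitochondrial depth was 1512 against 5724.5, 1630.5 against 3971 and 1696.5 against 3706 UMIs in the 3 classes.

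Transcripts of 1 class inside another were widespread in the library. At 500 UMIs per barcode, 98.5% of endothelium-like other barcodes, which should lack Kap, held a Kap UMI. Umod was found in 42.7% of mitochondria-rich, 27.0% of other and 21.9% of endothelium-like other barcodes, and Slc34a1 in 84.3%, 55.4% and 42.0%. Median non-mitochondrial depths before thinning were 1141, 4261 and 3340.5 UMIs. The share that free RNA holds in the differences above was not tested.

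Clu itself, the gene the sort was built on (chr14:65968483-65981547, plus strand), was sparse. After thinning 5.69% (4.85 to 6.62) of mitochondria-rich and 7.79% of other barcodes held a Clu UMI, against 6.48% of endothelium-like other barcodes. Without thinning the shares were 14.1%, 28.1% and 20.6%. In the proximal tubule-like class they were 4.22% and 1.93% after thinning. The interval of the endothelium-like share, 4.56 to 8.90%, holds that of the mitochondria-rich set. Endothelium-like other barcodes carried 89.5 CPM of Clu at 2000 to 3000 UMIs and 430 above 5000, so they are not a class shown to lack it. The labels call the sorted cells Clu-expressing, and these shares are read neither as expression nor as background.

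The 13 mt- genes kept nearly the same proportions among themselves. Moving 2.27% of the mt- UMIs from gene to gene would make the sets equal. Mt-Co3 was 19.6% of mt- UMIs in the mitochondria-rich set and 18.8% in the others, and mt-Co1 11.6% and 13.1%, both genes of complex IV. The ratios ran from 0.824 for mt-Nd3 to 1.07 for mt-Nd2, subunits of complex I. Within proximal tubule-like barcodes mt-Co1 was at 11.5% and 12.1%.

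**Figure D4:**
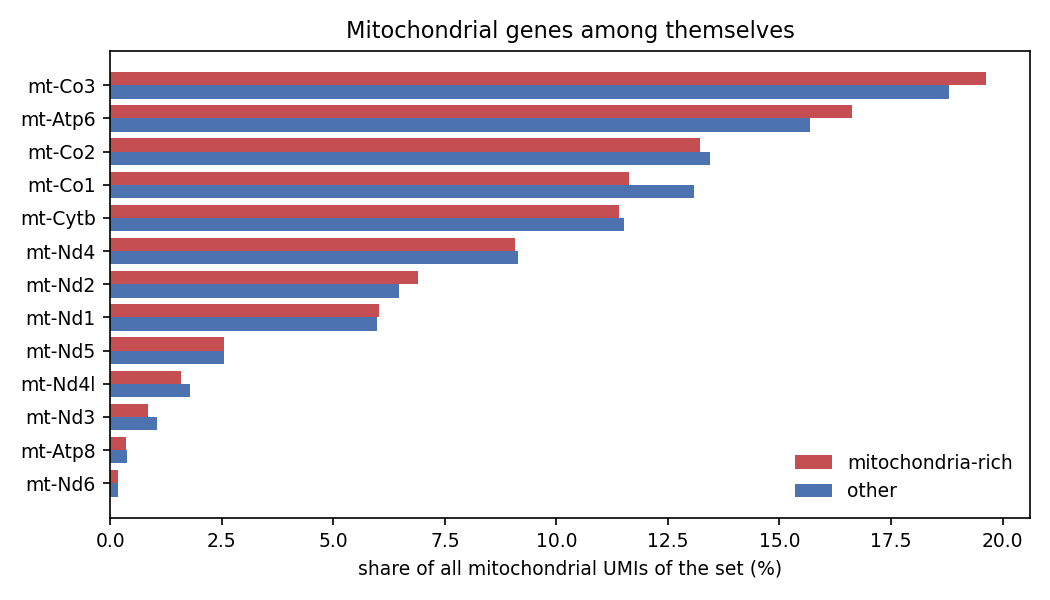
Each of the 13 mitochondrial genes (vertical axis) as a share of all mitochondrial UMIs of its set (horizontal axis, %, from 0), mitochondria-rich in red and other in blue. The genes stand in the same order in both sets, from mt-Co3 (19.6% and 18.8%) down to mt-Nd6 (0.177% and 0.173%).

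Over 10-point steps of the mitochondrial share the 18S locus and Lars2 climbed on both sides of the threshold, with no jump at 50%. The 18S locus went from 11042 CPM at 0 to 10% to 33168 at 40 to 50%, 40036 at 50 to 60% and 51405 at 80 to 90%. Lars2 went from 364 to 1450, 1720 and 2274 CPM in the same steps. Median non-mitochondrial depth fell along with them, from 4670 to 2194, 1514.5 and 947 UMIs, and its part was not tested beyond the depth steps above. Within proximal tubule-like barcodes the 18S locus went from 15100 to 51977 CPM. Malat1, a long noncoding RNA kept in the nucleus, did not follow: in proximal tubule-like barcodes it stood at 126425 CPM at 0 to 10%, 49164 at 20 to 30%, 89010 at 50 to 60% and 34397 at 80 to 90%. At the 50% split its ratio was 0.956. Over the depth steps it took no single direction, at 1.34, 1.23, 0.786, 1.11 and, above 5000 UMIs, 2.47. In the wider window of 1000 to 3000 non-mitochondrial UMIs, where the medians were 1249 and 2221, it was 0.464.

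**Figure D5:**
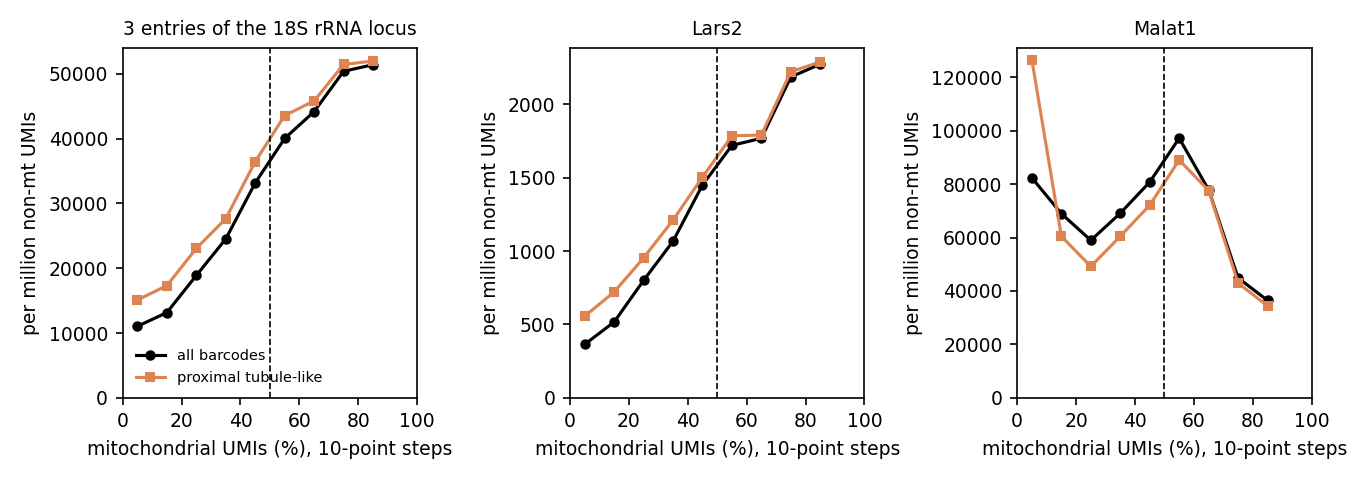
Levels in CPM (vertical axes from 0) in 10-point steps of the mitochondrial share (horizontal axis, %), for all barcodes in black and proximal tubule-like ones in orange, with the 50% threshold dashed. The 18S locus and Lars2 climb through the threshold, while Malat1 in proximal tubule-like barcodes falls from 126425 to 49164, climbs to 89010 and falls to 34397.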

How the data were processed

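The deposited matrices hold whole-number UMI counts per gene and barcode, which the authors did not normalize, as the values show. Cell Ranger 7.0.1 and mm10 were used per the submitters' processing notes, while the matrix headers carry version 3.0.1. The kit was version 3.1 per the labels' protocols.

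Barcodes were scaled to 10000 non-mitochondrial UMIs, log-transformed and clustered on 2000 variable nuclear genes (30 components, 15 neighbours, Leiden resolution 1, seed 0) in Python 3.11.15 with scanpy 1.11.5, pandas 2.3.3, numpy 2.4.6, scikit-learn 1.9.0, scipy 1.17.1, igraph 0.11.9 and leidenalg 0.10.2. A cluster was named from at least 3 leading markers, 25% of a list, each in 10% of barcodes and 2-fold above the rest. The thresholds for names and the depth steps were set after clusters and values had been seen. The sets and the gene and marker lists were chosen with earlier results of these data known. Scrublet called 1 barcode, so the call did not work; doublets were kept, and an alternative drops the top 8% of scores.

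UMIs were summed per set and class and scaled to 1000000 non-mitochondrial UMIs (CPM). List medians use log2 of levels plus 10. Shares have Clopper-Pearson and ratios exact Poisson intervals, which cover counting error only; standardised ratios have a delta-method interval. Named genes were the 10 with the largest fold in each direction at 50 or more CPM, up to 4 of the highest level and 4 of the largest fold per list, and every mt- gene; a gene that this rule names is not reported here. Genes named in the window of 2000 to 5000 UMIs were chosen after their values were seen. The code was tested on simulated data. No test was run, since 1 library was used.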

Additional observations from a re-analysis of the deposited data

Results flagged for a closer look

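Some genes were at least 2-fold higher in mitochondria-rich barcodes of the proximal tubule-like class and at least 2-fold lower in those of another class. The difference was not tested, since each class comes from 1 library. Against connecting tubule or principal-like barcodes, where ratios lay below 0.5, the ratios in the proximal tubule-like class were 2.49 for Apela, 2.59 for Aqp2, 3.56 for Defb1, 2.57 for Fos and 2.12 for Fxyd4. They were 3.38 for Krt7, 3.80 for Pvalb, 3.00 for Spink8, 2.81 for Tmsb4x and 3.33 for Wfdc2. In the connecting tubule or principal-like class Aqp2 stood at 0.183 and Fos at 0.120, and 149 of the 156 mitochondria-rich barcodes there were in cluster 9.

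Against thick ascending limb-like barcodes Sfrp1, at 3.34 in the proximal tubule-like class and 0.291 in the limb, and Wfdc2, at 3.33 and 0.431, went in opposite directions. Against distal convoluted tubule-like barcodes the same held for Clu, 3.70 and 0.489, Defb1, 3.56 and 0.475, Krt7, 3.38 and 0.249, and Pgam2, 4.33 and 0.466.

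At 2000 to 5000 non-mitochondrial UMIs none of the genes named here passed the 2-fold rule in the proximal tubule-like class. Aqp2 stood at 0.624, Fxyd4 at 0.924, Krt7 at 0.853, Pgam2 at 0.835, Tmsb4x at 0.951 and Clu at 1.40, and Spink8 was too low to be measured. That window held 307 of the 2382 mitochondria-rich barcodes of the class (12.9%), and 18 of the 1607 in cluster 0. Depth and cluster thus changed together, and their parts were not tested. Without cluster 0, at all depths, Clu (2.58) and Fos (2.03) were still higher, while Aqp2 (1.60) was below the rule.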

How the results depend on the processing

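One library allows no left-out replicate. No paired analysis was possible because only 1 library was compared within itself. Added alternatives (the window of 2000 to 5000 UMIs, clusters as strata, cluster 0 or the distal-led subcluster left out, 40% free RNA, the 18S locus and Lars2 left out) were chosen after seeing the data. In the proximal tubule-like comparison no other barcode had fewer than 1191 non-mitochondrial UMIs. The median of the mitochondria-rich ones was 1094, so much of that set has no counterpart of like depth. After subtracting 20% and 40% free RNA, 15 and 4 ratios had no value because the other set was at 0. For counts that moved, the cause was not tested, except that minimum levels change how many genes are measured and depth windows use fewer barcodes.

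Pooled genes higher were 170, and 8 at 1000 to 3000 UMIs, 65 with barcodes weighted equally, 390 with no minimum level, 355 after subtracting 20% free RNA and 273 with the median scaled to 0. Pooled genes lower were 576, and 281 at 1000 to 3000 UMIs, 1966 with no minimum, 254 at a minimum of 50 CPM and 889 after subtraction. With the mix of classes held constant, genes higher were 23, and 43 at a 60% threshold, 11 at 1000 to 3000 UMIs, 14 weighted equally, 270 with no minimum, 9 at a minimum of 50 and 61 after subtraction. Genes lower were 44, and 10 at 1000 to 3000 UMIs, 92 with no minimum, 21 at 50 and 138 after subtraction.

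Within proximal tubule-like barcodes genes higher were 98, and 17 at 1000 to 3000 UMIs, 696 with no minimum, 46 at 50 CPM, 291 after subtracting 40%, 135 without cluster 0, 104 at 2000 to 5000 UMIs and 21 with clusters as strata. Of the 98, those still higher were 4, 98, 46, 11, 29, 3 and 2 in the same order. Genes lower were 3, and 39 at 1000 to 3000 UMIs, 22 weighted equally, 44 with no minimum, 0 at 50, 8 and 43 after subtracting 20% and 40%, 13 without cluster 0, 33 at 2000 to 5000 UMIs and 1 with strata.

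The proximal tubule-like share of mitochondria-rich barcodes was 82.5% at a 40% threshold, 91.5% at 60%, 81.3% at 1000 to 3000 UMIs, 88.5% without likely doublets and 51.0% at resolution 2. That of the others was 41.1%, 45.3%, 57.9%, 44.0% and 41.2%. The mt- UMIs placed on different genes were 2.23% at the 40% threshold, 2.17% at 60%, 2.59% within proximal tubule-like barcodes and 1.94% weighted equally. From 0 to 10% to 80 to 90% of mt- UMIs the 18S locus grew 4.66-fold and Lars2 6.24-fold, and 3.44-fold and 4.11-fold within proximal tubule-like barcodes.

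Among genes that the naming rule gives and that passed the 2-fold rule, directions turned in the pooled comparison at 1000 to 3000 UMIs for Bsnd (1.21) and Mme (1.07). In proximal tubule-like barcodes at 2000 to 5000 UMIs they turned for Aqp2 (0.624), Atp6v1g3 (0.921), Calb1 (0.991), Egr1 (0.939), Fxyd4 (0.924), Hsd11b2 (0.873) and Klk1 (0.981). They also turned there for Krt7 (0.853), Pgam2 (0.835), Pkm (0.983), S100a6 (0.982), Tmsb4x (0.951) and Txnip (0.876), the last also with strata (0.978). Outside those limits, and chosen after their values were seen, ratios crossed 1 at 1000 to 3000 UMIs in the pooled comparison for Calb1 (1.45), S100g (1.42), Klk1 (1.37) and Neat1 (0.656), and at 2000 to 5000 UMIs in proximal tubule-like barcodes for Slc12a1 (0.925), Krt18 (0.720) and Emcn (0.776). Connecting tubule markers moved from a pooled median log2 ratio of -0.63 to 0.40.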
